A study of Homo sapiens with 8 samples.

Results

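Sites at which both Sp1 and CTCF gave a peak were examined in chromatin immunoprecipitation sequencing (ChIP-seq) data from U-2 OS, a cell line of human osteosarcoma. A site was an Sp1 antibody 1 peak on chromosomes 1 to 22 or X that overlapped an antibody 2 peak by at least 1 bp and also overlapped a CTCF replicate 1 peak that itself overlapped a replicate 2 peak. Of 4222 Sp1 peaks shared by both antibodies, 962 met this rule, a share of 22.8% (95% Wilson interval 21.5 to 24.1). They held 977 of the 33936 CTCF peaks shared by both replicates, or 2.88%. These sites were chosen by the overlap of peaks in the 4 lists, so the overlap itself is a description and not a result. All intervals given here cover counting error only, and no p-value was computed because each Sp1 antibody had 1 library and peaks are not replicates.

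The Sp1, IgG and 1 of the input libraries came from cells whose genotype is labelled as an endogenous V5-Halo-SP1 knock-in, although the titles call the same cells parental. The CTCF libraries, each with an input, came from clone C32 with an endogenous FLAG-Halo-CTCF knock-in, while the description of the series names wild-type cells and a supplementary legend of the study places the CTCF peaks in the tagged Sp1 line. All cells were crosslinked with 1% formaldehyde for 6 min, and no group received another treatment. Rabbit antibodies against Sp1, a normal rabbit IgG and a CTCF antibody were used. By these labels the Sp1 and CTCF peaks were measured in different tagged lines, so a site of both is a place where both proteins were recovered and not a measurement of both on 1 molecule of DNA. The 5 peak lists held 8602 peaks for Sp1 antibody 1, 5882 for antibody 2, 42493 and 35765 for CTCF replicates 1 and 2, and 90 for IgG on these chromosomes. The lists carry no read counts and the study's own read numbers were not used, so depth does not enter any value given here.

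Sp1 is a zinc finger transcription factor that recognises GC boxes, short G-rich elements found in many promoters of broadly expressed genes. CTCF reads a longer sequence with a row of zinc fingers, stops cohesin as it extrudes chromatin loops and is known as an insulator and loop anchor protein, at promoters as well as far from them. GC boxes lie mostly close to transcription start sites, whereas most CTCF sites lie elsewhere.

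Sequences were read for the sites in which a CTCF core, the conserved middle of the CTCF recognition sequence, lay within 120 bp of a GC box, because there both recognition elements are seen on a short stretch. The GC box was searched as GGGCGG and the core with at most 1 mismatch, both on either strand, within 50 bp of the respective summit. Sites overlapped by IgG were left out before this search. Of 156 candidate sites with both a core and a GC box, 47 had them within 120 bp of each other. The 6 with no mismatch in the core and the highest rank are printed in hg38, 5′ to 3′ on the strand of the nearest protein-coding gene, with the core and the GC box in capitals. EARS2 shows the core alone, with its GC box 30 bp away, since the longer window reaches an untranslated region.
EARS2, minus strand, chr16:23557495-23557524: ctggcctctGCCCCCTGGTGGcgagtgcgg
ANGPTL8, plus strand, chr19:11243433-11243480: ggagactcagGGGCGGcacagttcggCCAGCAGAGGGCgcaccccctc
EFR3B, plus strand, chr2:25129336-25129411: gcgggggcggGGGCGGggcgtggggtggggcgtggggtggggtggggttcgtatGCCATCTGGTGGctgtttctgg
SNX15, plus strand, chr11:65027787-65027820: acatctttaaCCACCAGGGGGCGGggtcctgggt
RPS4X, minus strand, chrX:72277276-72277350: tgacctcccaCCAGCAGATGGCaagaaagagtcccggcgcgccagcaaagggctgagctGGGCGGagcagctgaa
DDX11L16, minus strand, chr16:10837-10987: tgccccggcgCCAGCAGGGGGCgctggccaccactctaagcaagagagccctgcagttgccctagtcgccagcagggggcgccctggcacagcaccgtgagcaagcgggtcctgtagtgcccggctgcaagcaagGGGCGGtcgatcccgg

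In these 6 sites the arrangement of the elements varied. At SNX15, which encodes a sorting nexin, the last 4 bases of the core were also the first of the GC box, and the Sp1 and CTCF summits lay 6 bp apart. At ANGPTL8, a liver-secreted regulator of lipoprotein lipase, the GC box stood 10 bp before the core in an intron 3529 bp downstream of the nearest protein-coding start. RPS4X, a gene of the small ribosomal subunit, had its core upstream and its GC box 37 bp nearer to the start site. EARS2, the mitochondrial glutamyl-tRNA synthetase, and EFR3B, a plasma membrane protein, carried the core as the reverse complement of the printed strand. The site at DDX11L16, a pseudogene at the end of chromosome 16, held another copy of the core in lower case; near-identical copies of this family stand at several chromosome ends, so reads could not be assigned to 1 of them with certainty.

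Fold enrichment over the control, the height that the authors' peak caller gave each peak, differed little between these sites and the rest for Sp1. The median was 10.1 with antibody 1 (quartiles 6.56 and 15.6) against 10.4 in the 3260 shared Sp1 peaks with no shared CTCF peak, and 6.33 with antibody 2 against 6.88. For CTCF it was 36.1 in replicate 1 (quartiles 10.8 and 109) against 42.0 in the 32959 other shared CTCF peaks, and 17.6 in replicate 2 against 21.9. The quartiles of CTCF lay farther apart at the sites of both than at the other CTCF peaks, whose quartiles were 17.7 and 83.5 in replicate 1. Antibody 2 gave lower values than antibody 1 at most sites (median log2 difference -0.66), and CTCF replicate 2 gave lower values than replicate 1 (median -0.91).

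Across the 962 sites the heights of Sp1 and CTCF were close to unrelated. As a description across sites, Spearman's rho was 0.103 between antibody 1 and CTCF replicate 1, 0.102 with replicate 2, and 0.0609 and 0.0526 for antibody 2. It was 0.963 between the CTCF replicates, which share an antibody and a clone, and 0.437 between the Sp1 antibodies, which share a line. Measured against the median of each library's own list, 160 sites were at or above it in all 4 libraries, 159 were high with both Sp1 antibodies and low in both CTCF replicates, 107 were low for Sp1 and high for CTCF, and 126 were below it in all 4.

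**Figure D1:**
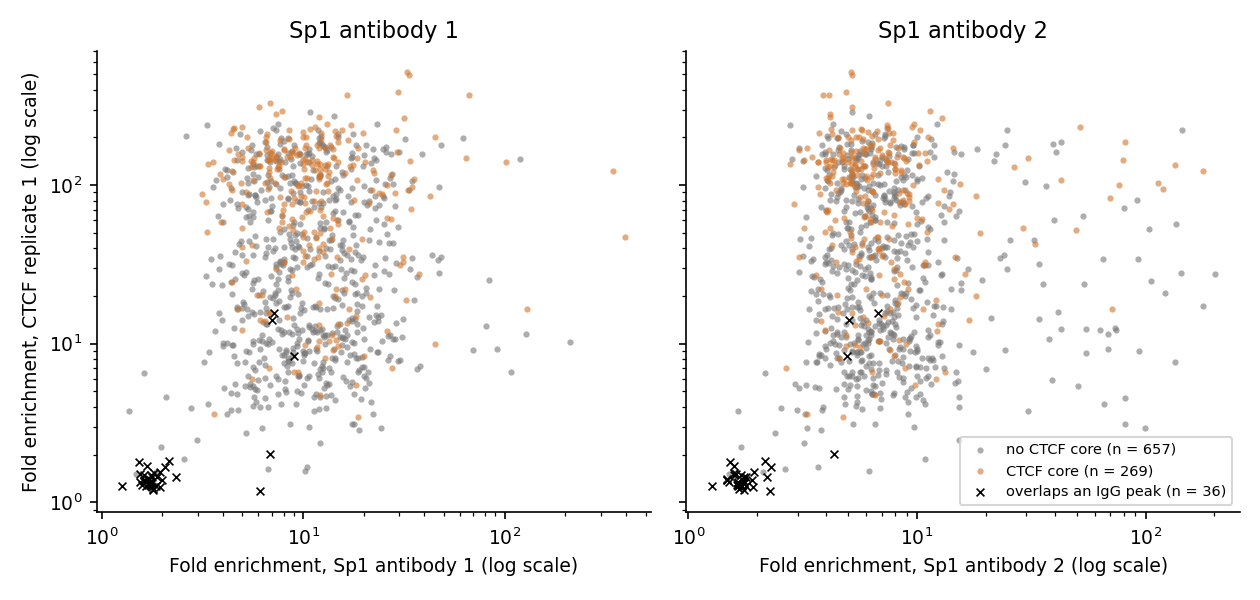
Fold enrichment of CTCF replicate 1 (vertical, log scale) against Sp1 antibody 1 (left) and antibody 2 (right, both log scale), with 1 point per site. Sites with a CTCF core at the CTCF summit (orange, n = 269) sit mostly at the top, the 36 sites overlapping an IgG peak (crosses) mostly at the bottom left, and the cloud of the others shows little slope.

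A small set overlapped peaks of the IgG control. It comprised 36 sites (3.74%), against 27 of the other shared Sp1 peaks (0.828%), a difference of 2.91 percentage points (95% Newcombe interval 1.82 to 4.33). These 36 sites had median enrichments of 1.77 and 1.71 with the Sp1 antibodies and of 1.39 and 1.98 with CTCF. Just 1 of them lay at a promoter, 1 had a CTCF core and 1 had a GC box. Of the 96 sites more than 5 kb from any start site, 33 belonged to this set. Without it the sites had medians of 10.4, 6.41, 40.4 and 19.0 in antibody 1, antibody 2 and CTCF replicates 1 and 2.

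Most of the sites lay at promoters. The antibody 1 summit was within 1 kb of an annotated start site in 811 of 962 (84.3%, 81.9 to 86.5), of which 722 had a protein-coding start in that range. In the other shared Sp1 peaks the share was 90.3%, so that the sites with CTCF were at promoters less often, by 6.00 points (3.59 to 8.62). Without the sites overlapping IgG the share at promoters was 87.5%. The start nearest to the summit belonged to a protein-coding gene in 641 of the 811 and to a long noncoding RNA in 138. Divergent protein-coding starts, on both strands within 1 kb, were seen in 129 of 722 (17.9%) against 21.7% of the other Sp1 promoters, a difference of -3.88 points (-6.94 to -0.549).

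Seen from CTCF, the contrast ran the other way. A start site lay within 1 kb of the CTCF replicate 1 summit in 803 of the 962 (83.5%) but in 18.9% of the other shared CTCF peaks. This follows in part from the rule, which requires an Sp1 peak. In canonical transcripts the CTCF summit fell in a coding exon at 65 sites (6.76%) and in a 5′ untranslated region at 67 (6.96%), against 2.29% and 0.546% of the other CTCF peaks. An intron held it at 182 sites and 471 were intergenic. The Sp1 summit was intergenic at 618 sites, which includes the bases just upstream of start sites, intronic at 133, and in a 5′ untranslated region at 57. Base composition at the Sp1 summit was alike, with a median GC content of 66.3% in both sets of Sp1 peaks.

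The share of shared Sp1 peaks with CTCF varied among chromosomes, from 4.76% on chromosome 13 (2 of 42, interval 1.32 to 15.8) to 30% on chromosomes 4 (48 of 160) and 20 (39 of 130).

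Sp1 and CTCF summits stood beside each other rather than on the same bases. The median distance was 222 bp (quartiles 92 and 452.5, largest 1683), and the other pairs of an Sp1 and a CTCF library gave 221, 225.5 and 220 bp. Summits of the Sp1 antibodies lay a median of 54 bp apart at these sites and those of the CTCF replicates 9 bp, both less than the distance between the targets. Within 50 bp of each other were 145 pairs of summits (15.1%), within 100 bp 260 (27%) and within 500 bp 755 (78.5%). In 697 sites (72.5%) the CTCF summit was inside the Sp1 peak.

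At the extremes of distance, the summits coincided at the promoter of KIF20B, a mitotic kinesin, where all 4 libraries were weak at 4.60 and 4.78 for Sp1 and 5.55 and 4.01 for CTCF. At 2 neighbouring sites on chromosome 4, chr4:49118354-49119998 and chr4:49123336-49123713, where IgG also had a peak, the summits coincided too, with enrichments between 1.29 and 1.89 in all libraries. The widest distances were 1470 bp at PEG3, an imprinted zinc finger gene, 1517 bp at EPOR, the erythropoietin receptor, 1651 bp at CPNE8, a copine, and 1683 bp at H2AC20, a histone H2A gene.

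The rule's limit of 1 bp can be seen in the sites next to it. Just inside were NRBF2 with 3 bp of overlap, ENSG00000268120 with 6 bp and FAHD2A with 11 bp, where CTCF replicate 1 reached 7.69, 35.9 and 26.6. Just outside, with a gap of 1, 3 and 8 bp to the nearest shared CTCF peak, were AP3S1, LSM5 and DUSP10, whose neighbouring CTCF peaks reached 12.4, 30.6 and 12.6. Among the 3260 Sp1 peaks outside the rule, 416 overlapped a CTCF peak of replicate 1 (351) or replicate 2 (68) without meeting the rule.

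Around the canonical start site, Sp1 summits were tightly placed and CTCF summits spread. In the 634 sites whose Sp1 summit was within 1 kb of the canonical start of the nearest gene, the Sp1 summit had a median position of -84 bp (quartiles -180.75 and -25.25, negative values being upstream). The other shared Sp1 peaks had -85 bp. CTCF summits of the same 634 sites had a median of -149.5 bp with quartiles of -423 and 89. The sites and their genes were chosen by the Sp1 summit, and the CTCF summit had no limit of 1 kb. Part of the difference in spread therefore follows from this choice. Sp1 was upstream of the start in 81.5% and CTCF in 67.5%. The other shared Sp1 peaks had 85.7% upstream, a difference of -4.20 points (-7.68 to -1.03). Of these sites, 367 (57.9%) had both upstream, 150 (23.7%) had Sp1 upstream and CTCF downstream, 61 had the reverse and 56 had both downstream. Among CTCF summits within 1 kb of a canonical start, 66.7% were upstream against 67.5% of other CTCF peaks, a difference of -0.832 points (-5.14 to 3.32). These shares are not on the same measure. The gene was the one nearest to the Sp1 summit at the sites of both, and the one nearest to the CTCF summit at the other peaks.

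**Figure D2:**
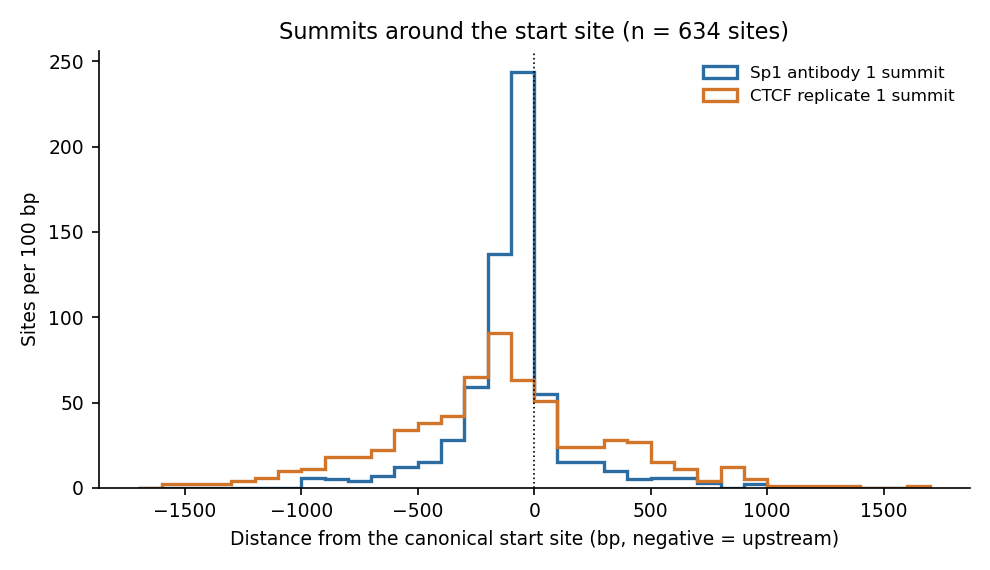
Number of summits per 100 bp by distance from the canonical start site (bp, negative upstream) for Sp1 antibody 1 (blue) and CTCF replicate 1 (orange) in the same 634 sites. Sp1 forms a narrow peak with its median at -84 bp, and CTCF a broad one with its median at -149.5 bp. The sites were chosen with the Sp1 summit within 1 kb of the start, a limit not set on CTCF.

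Along the gene, CTCF stood upstream of Sp1 more often than downstream when the strand was taken from the protein-coding start nearest to the Sp1 summit. CTCF was upstream in 423 of 721 promoter sites (58.7%, 55.0 to 62.2), with 1 more site at distance 0. The remaining pairs of libraries gave 58.5%, 58.1% and 58.3%. All 4 pairs gave the same order in 636 sites, with CTCF upstream in 378 and downstream in 258. The order was the same for genes on the plus strand (58.8%) and the minus strand (58.5%). It depended on the choice of start site: with the strand of the start nearest to the CTCF summit instead, CTCF was downstream in 47.2% (43.5 to 50.9) rather than 41.3%, an interval that includes an even split. Where all protein-coding starts near either summit lay on a single strand, so that both choices agree on it, CTCF was downstream in 39.9% of 589 sites (36.0 to 43.9). Both of these alternatives were chosen after the data had been seen.

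By distance, CTCF was upstream in 36 of 73 sites with summits up to 50 bp apart (49.3%, 38.2 to 60.5), in 62.1% at 51 to 150 bp, in 61.9% at 151 to 300 bp, in 58.4% at 301 to 600 bp and in 55.6% beyond. The intervals of these shares overlap. At divergent promoters, where upstream of one gene is downstream of the other, it was 52.7% (44.1 to 61.1) against 60.0% (56.0 to 63.8) elsewhere.

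**Figure D3:**
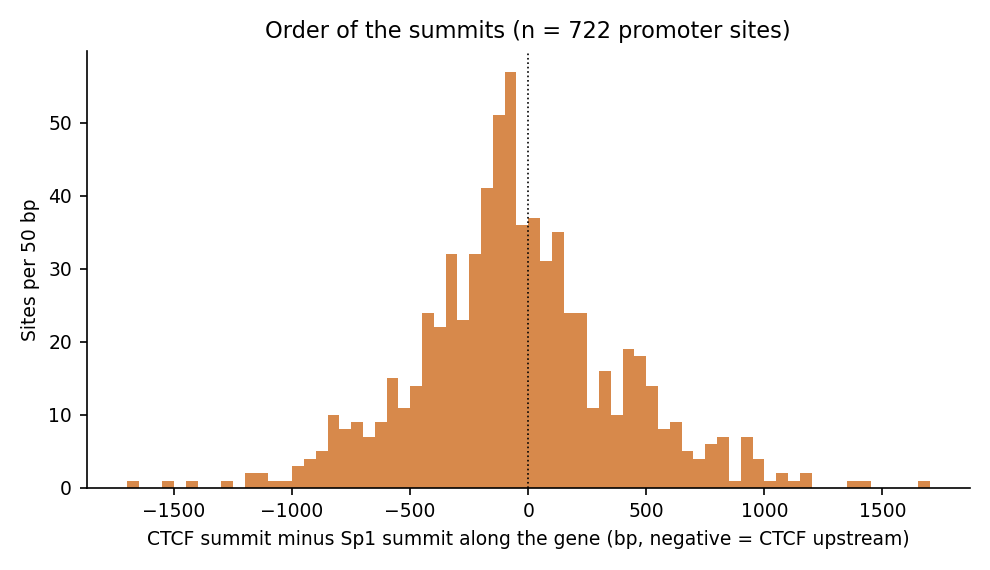
Position of the CTCF replicate 1 summit relative to the Sp1 antibody 1 summit along the gene (bp, negative means CTCF upstream) in 722 promoter sites, counted per 50 bp, with the strand of the start nearest to Sp1. CTCF was upstream in 423 sites and downstream in 298, and the tails reach 1651 bp upstream and 1683 bp downstream.

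The CTCF core was scarcer here than at other CTCF peaks. It was present at 270 of 962 CTCF summits (28.1%) against 57.9% of the other shared CTCF peaks, a difference of -29.8 points (-32.6 to -26.8). The difference was seen at promoters too, where 27.1% stood against 47.6% (difference -20.4, -23.6 to -17.0), and away from promoters, with 32.7% against 60.3%. With no mismatch allowed it was 6.34% against 19.1%. Leaving out the sites overlapped by IgG gave 29% (26.2 to 32.1). As a background, 1.22% of the canonical protein-coding starts had a core with at most 1 mismatch in a window of the same length, 101 bp. No match says only that these letters were not in the window.

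Sites with the core carried much higher CTCF peaks and about the same Sp1 peaks. Median CTCF enrichment was 104 in replicate 1 with the core and 23.1 without, and 48.4 and 10.9 in replicate 2. For Sp1 antibody 1 it was 10.5 with the core and 9.65 without. The GC box at the Sp1 summit went with a smaller difference in antibody 1 and little in antibody 2. Antibody 1 had medians of 12.1 where core and GC box were both present (161 sites), 12 with the GC box alone (374 sites), 8.85 with the core alone (109 sites) and 7.69 with neither (318 sites). Antibody 2 had 6.54, 6.83, 5.83 and 5.94 in the same order. For CTCF replicate 1 the medians of these classes were 109, 28.3, 102 and 17.1. Cores at protein-coding promoters read along the gene strand in 105 of 197 (53.3%, 46.3 to 60.1), next to 52.2% at the other CTCF promoter peaks, so neither direction was favoured beyond counting error at the sites of both.

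GC boxes at the Sp1 summits were as common as elsewhere within the interval, with 55.6% against 57.8% of the other Sp1 peaks (difference -2.21 points, -5.79 to 1.34) and 35.7% of canonical starts. The windows of antibody 2 held fewer, at 45.6%. At the CTCF summits the sets differed, and 27.9% of the sites of both held a GC box against 7.17% of the other CTCF peaks. Restricted to promoters it was 28.6% against 17.8%, a difference of 10.9 points (7.68 to 14.2). Here too the rule enters, since it requires an Sp1 peak beside each of these CTCF peaks. Where the summits are close, the windows around them also overlap. The share at the CTCF summit was 37.2% with summits at most 50 bp apart and 19.1% beyond 600 bp. The CCAAT box, CCAAT on either strand, the element of the factor NF-Y, was present at 19.4% of the Sp1 summits against 27.1% of the other Sp1 peaks, a difference of -7.68 points (-10.5 to -4.66). Differences for the ETS core CCGGAA, the word TCGCGAGA, a YY1 word AAGATGGCG, an NRF1 word GCATGCGC and the CRE TGACGTCA had intervals that spanned 0.

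The motifs shifted with the distance between summits. The GC box at the Sp1 summit was least common where the summits were at most 50 bp apart, at 38.6% (31.1 to 46.7), and stood between 54.9% and 62.0% in the wider classes. Sites at most 50 bp apart also lay at promoters least often, at 64.1% against 86.7% to 89.5%, and they include sites overlapped by IgG. The CTCF core was present in 25.5% of these closest sites, in 18.3% at 151 to 300 bp and in 41.5% (33.9 to 49.4) beyond 600 bp, where median CTCF enrichment in replicate 1 was also the highest at 54.6.

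**Figure D4:**
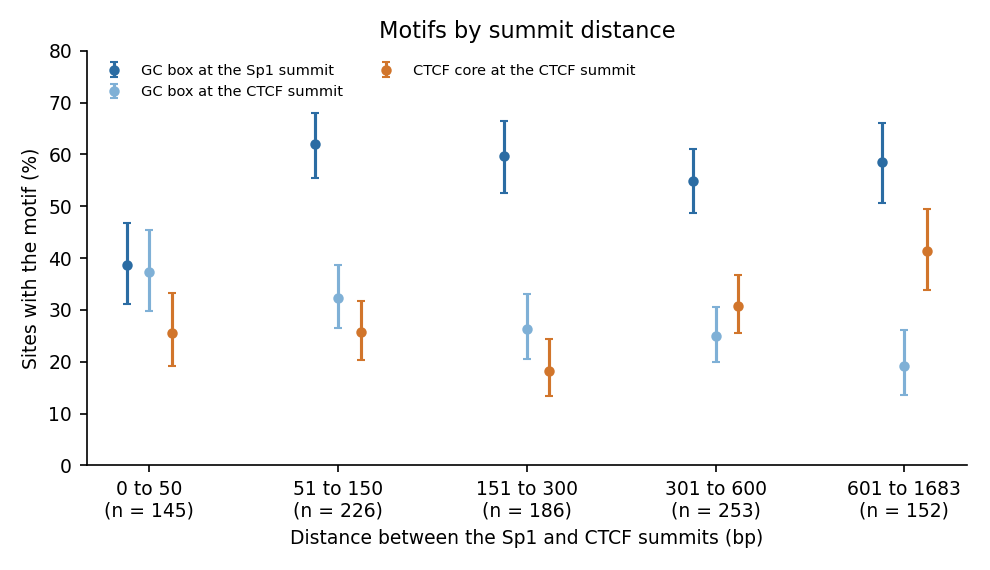
Share of sites (%, with 95% Wilson intervals) that held a GC box at the Sp1 summit (dark blue), a GC box at the CTCF summit (light blue) or a CTCF core at the CTCF summit (orange), by distance between the summits (bp, number of sites below each class). The GC box at Sp1 was lowest in the closest class at 38.6%, and the CTCF core highest in the widest at 41.5%.

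The antibodies disagreed strongly at a small number of sites. Antibody 2 was more than 4-fold above antibody 1 at 48 sites (4.99%), a share near the 6.35% of the other shared Sp1 peaks, and antibody 1 was more than 4-fold above antibody 2 at 46. The first set had median enrichments of 8.22 with antibody 1 and 70.7 with antibody 2. The ETS core CCGGAA lay at the antibody 2 summit in 31 of the 48 (64.6%) and in 168 of the other 914 sites (18.4%), a difference of 46.2 points (31.8 to 58.4). A GC box lay there in 10 of 48. ETS factors, such as GABPA, are activators of many housekeeping promoters. SF3A3, a splicing factor subunit, showed 12.8 with antibody 1 and 134 with antibody 2, and MED23, a Mediator subunit, 11.8 and 144. At GTF2H2, a subunit of the general factor TFIIH, the values were 8.45 and 106, and at EIF3F, a translation initiation factor subunit, 6.43 and 91.2. CTCF was high at SF3A3 (134 and 117) and MED23 (222 and 108) and lower at GTF2H2 (24.9 and 9.85). With 1 library per antibody, this difference has no replicate check.

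Among 19962 protein-coding genes on these chromosomes, 4188 (21%) had a shared Sp1 peak at a start site and 4844 (24.3%) a shared CTCF summit. A site of both lay at 877 genes (4.39%), which is 20.9% of the genes with shared Sp1. Gene lists are described below by their counts beside these shares. Within the lists, the order of CTCF and Sp1 is read along the listed gene's own strand. Where the nearest start belongs to a gene on the opposite strand, this differs from the rule behind the 58.7% above. They were drawn up by gene symbol, with earlier results of these data known, and a few members by symbol have another function.

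Cytosolic ribosomal protein genes, whose products build the ribosome, had a site of both at 19 of the 51 genes with shared Sp1 (37.3%, 25.3 to 51.0) of 84 in the list. CTCF was upstream of Sp1 along the gene in 18 of the 19, at 3 to 483 bp, beside 58.7% of all promoter sites. The summits lay within 300 bp in 13 of the 19. Over all sites of both they lay within 200 bp in 46.8% and within 500 bp in 78.5%. The counts of the 19 were made after the values were seen. The exception to the order, RPL26L1, is a paralog of RPL26, with CTCF 515 bp downstream. RPL27A, which is among the 18, had its Sp1 summit 6364 bp downstream of the canonical start, near another annotated start. Both of its summits fell in a 3′ untranslated region, and CTCF reached just 6.00 and 4.21. RPL27 had enrichments of 14.3 and 15.3 for Sp1 and 68.6 and 39.0 for CTCF, with CTCF 183 bp upstream. At RPS14 they were 8.67 and 9.12 for Sp1 and 147 and 80.6 for CTCF, 130 bp upstream. RPS26 had 9.23 and 10.0 for Sp1 and 44.5 and 18.6 for CTCF, 356 bp upstream. RPS4X, whose sequence is printed above, had 7.65 and 5.60 for Sp1 and 84.4 and 37.3 for CTCF, 75 bp upstream. Over the 19 genes CTCF replicate 1 had a median of 75.8 and a range of 6.00 to 200, and antibody 1 a median of 8.83 and a range of 4.02 to 83.6. A core was found in 5 of the 19 and a GC box in 8, beside 28.1% and 55.6% of all sites of both.

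Mitochondrial ribosomal protein genes had 8 sites of both among 41 genes with shared Sp1 (19.5%). Along each gene's own strand CTCF was upstream in all 8, and a GC box was present in all 8, beside 55.6% of all sites of both. These counts, too, were made after the values were seen. The order is not on the same measure as the 58.7% of all promoter sites, which takes the strand of the nearest start. At MRPL34, MRPS12 and MRPL51 that start belonged to ABHD8, SARS2 and NCAPD2 on the opposite strand. By that rule CTCF is downstream at these sites. Antibody 2 had a median of 26.6 against 9.81 for antibody 1. MRPL39 had 7.29 and 79.8 for Sp1 and 145 and 78.8 for CTCF. At MRPL34 they were 28.2 and 15.6 for Sp1 and 21.8 and 11.6 for CTCF. MRPL58, a release factor in the mitochondrial ribosome, had 8.77 and 68.4 for Sp1 and just 11.5 and 7.63 for CTCF.

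Other genes of protein synthesis were not separable from the background share of 20.9%. In translation initiation and elongation 10 of 33 genes with Sp1 had a site of both (30.3%, 17.4 to 47.3). Read along each gene's own strand, CTCF was downstream in 8 of the 10, a count also made after the values were seen. The 41.3% of all promoter sites takes the strand of the nearest start and is not on the same measure. At EIF2B4, EIF2S1 and EIF3H that start belonged to SNX17, ATP6V1D and UTP23 on the opposite strand, and by it CTCF is upstream. EIF2B4, a subunit of the exchange factor for eIF2, had 22.6 and 13.9 for Sp1 and 85.6 and 54.2 for CTCF, 91 bp downstream. EIF2S1, which encodes the alpha subunit of eIF2, had 12.1 and 9.47 for Sp1 and 117 and 53.7 for CTCF, 134 bp downstream. EEF1AKMT4, an enzyme that methylates elongation factor 1A rather than a factor itself, had 13.0 and 40.7 for Sp1 and 161 and 107 for CTCF. Aminoacyl-tRNA synthetases had 4 of 18 (22.2%, 9.00 to 45.2), all of them the mitochondrial enzymes EARS2, SARS2, AARS2 and WARS2. EARS2 had 12.1 and 8.01 for Sp1 and 137 and 52.4 for CTCF, and SARS2, which shares its site with MRPS12 on the opposite strand, had 6.86 and 4.69 for Sp1 and 141 and 122 for CTCF. At AARS2 they were 5.56 and 3.83 for Sp1 and 180 and 55.4 for CTCF.

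Of genes that handle RNA, splicing factors and hnRNPs had 13 of 45 (28.9%, 17.7 to 43.4), with CTCF upstream in 7 and downstream in 6. A core was found in 6 of the 13, beside 28.1% of all sites of both. SNRPD2, a core protein of spliceosomal snRNPs, had 12.8 and 8.03 for Sp1 and 126 and 108 for CTCF at a distance of 1300 bp. HNRNPDL had 9.94 and 6.69 for Sp1 and 47.3 and 15.2 for CTCF. Subunits of RNA polymerase II, TFIID, TFIIH and Mediator had 8 of 35 (22.9%), which counts TAF1B, a factor of RNA polymerase I. MED20 had 24.8 and 18.3 for Sp1 and 169 and 134 for CTCF. POLR2A, the largest subunit of RNA polymerase II, had 17.5 and 6.54 for Sp1 and low CTCF values of 3.11 and 3.29. Nuclear pore genes had 2 of 14, TPR and AAAS, with CTCF at 141 and 33.8 and at 229 and 101.

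Proteasome subunits had 5 of 14 (35.7%, 16.3 to 61.2). PSMD9 had 9.31 and 9.54 for Sp1 and 30.7 and 18.7 for CTCF, PSMD11 had 7.32 and 24.7 for Sp1 and 222 and 99.3 for CTCF, and PSMC5 had 13.9 and 8.14 for Sp1 and 30.4 and 11.5 for CTCF. Oxidative phosphorylation subunits had 6 of 32 (18.8%), all with the summits within 300 bp. Over all sites of both, 46.8% had them within 200 bp and 78.5% within 500 bp. NDUFB11, of complex I, had 14.1 and 5.38 for Sp1 and 66.3 and 30.8 for CTCF. ATP5MC2, of ATP synthase, had 5.83 and 8.28 for Sp1 and 156 and 75.6 for CTCF. COX7A2L, which joins respiratory complexes, had 19.6 and 8.64 for Sp1 but 8.30 and 6.77 for CTCF.

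Among genes of the cell cycle, replication genes had 4 of 19 (21.1%): PCNA, the sliding clamp, with 19.5 and 9.04 for Sp1 and 33.8 and 10.7 for CTCF, ORC4 with 14.9 and 9.43 for Sp1 and 19.1 and 15.6 for CTCF, ORC2 with 22.5 and 12.7 for Sp1 and 27.3 and 9.81 for CTCF, and RFC2. In these, a GC box lay at each Sp1 summit, beside 55.6% of all sites of both. Mitosis genes had 4 of 34 (11.8%, 4.67 to 26.6, an interval that includes the background), among them CENPT and CENPO of the kinetochore and CDC20, an activator of the anaphase-promoting complex, where Sp1 antibody 1 gave 47.0, antibody 2 gave 6.24 and CTCF 28.0 and 7.68. Histone genes had 7 of 17 (41.2%, 21.6 to 64.0) at 6 sites, with H2AC20 and H2BC21 sharing 1 site. All of these genes but H1-1 lay close together on chromosome 1, at 149832254 to 149888588. The interval counts genes as separate, so it is too narrow to set this list apart from the background. Histone genes are near-identical copies, so reads may have been split among them. TK1, the cytosolic thymidine kinase of S phase, had 13.9 and 5.86 for Sp1 and 45.5 and 31.9 for CTCF, 107 bp downstream, with a core and a GC box.

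Of genes for the factors themselves, ESCO1, an acetyltransferase of cohesin, was the 1 gene of the CTCF and cohesin list with a site of both, of 5 with Sp1. It had 9.10 and 14.4 for Sp1 and 171 and 96.6 for CTCF, 220 bp upstream. KLF7 was the 1 of 6 in the Sp and KLF list, with 8.44 and 4.45 for Sp1 and 8.07 and 3.70 for CTCF. The genes SP1, CTCF, RAD21, MYC and RB1 had none. ZNF genes had 23 of 150 (15.3%, 10.4 to 22). ZNF616 had 12 and 12.3 for Sp1 and 110 and 52.4 for CTCF, and ZNF219 had 27.8 and 6.75 for Sp1 and 102 and 45.6 for CTCF. In the bone list 2 of 3 had one. COL1A1, the alpha 1 chain of type I collagen and the main bone matrix protein, had 10.4 and 4.51 for Sp1 and 201 and 114 for CTCF. Its CTCF summit lay 486 bp upstream of the Sp1 summit in the orientation of the gene, and both summits fell in an intron. ATF4, a stress-response factor used in osteoblasts, had 20.1 and 12 for Sp1 and 7.08 and 4.83 for CTCF.

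**Figure D5:**
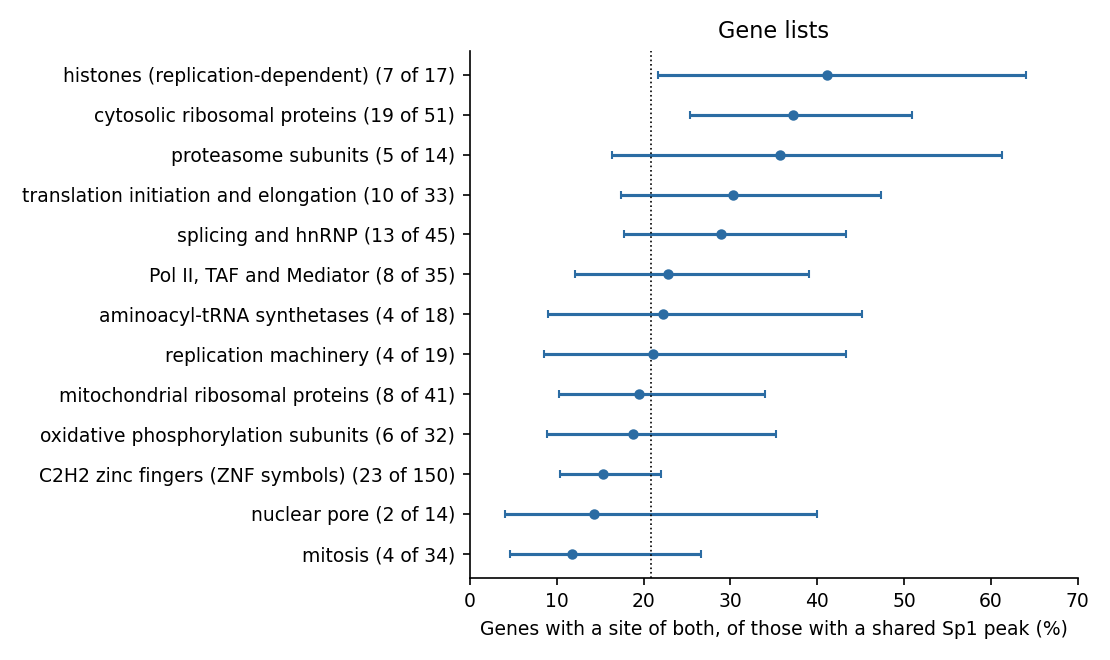
Share of genes with a site of both among those with a shared Sp1 peak at a start site (%, with 95% Wilson intervals), for the 13 lists with at least 10 such genes. The dotted line marks the 20.9% of all protein-coding genes with a shared Sp1 peak. The intervals of the histone list and the cytosolic ribosomal protein list begin above it at 21.6% and 25.3%, and all others span it. Intervals count genes as separate, which the clustered histone genes, some sharing a site, are not.

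The sites that stood highest in all 4 libraries at once were ranked by the lowest of their 4 percentiles, each within its own list. First was a site in a noncoding region of chromosome 16, chr16:2904856-2906431, at ENSG00000289222, with 48.5 and 24.1 for Sp1 and 179 and 82.8 for CTCF, and summits 1464 bp apart. SLC12A5, a potassium chloride cotransporter of neurons, followed at chr20:46021426-46023233 with 38.7 and 22.1 for Sp1 and 156 and 104 for CTCF. The promoter shared by MED20 and BYSL, a factor for making the small ribosomal subunit, ranked next, and there CTCF lay 265 bp upstream of Sp1 as read along MED20.

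At the start of RUVBL2, an ATPase of chromatin remodelling complexes that lies head to head with GYS1, Sp1 gave 27.4 and 15.6 and CTCF 157 and 64.5. RRP9, a protein of the U3 small nucleolar ribonucleoprotein opposite PARP3, had 29.8 and 14.5 for Sp1 and 162 and 109 for CTCF. CNNM2, a protein of magnesium transport, had 31.7 and 12.8 for Sp1 and 264 and 89.5 for CTCF. LMBRD1, needed for cobalamin export from lysosomes, had 23.3 and 12.3 for Sp1 and 245 and 92.4 for CTCF with summits 5 bp apart. ELMOD2, NDUFAF3, CDK5RAP3, STK17A and EPHB3 completed the first 12, with Sp1 antibody 1 between 15.6 and 31.9 and CTCF replicate 1 between 122 and 197. CTCF was upstream in 9 of the 12, beside 58.7% of all promoter sites, and downstream at SLC12A5 and NDUFAF3. The first site, at ENSG00000289222, had no protein-coding start within 1 kb and so no order along a gene. A GC box was present in 10 of the 12 and a core in 1, CNNM2, beside 55.6% and 28.1% of all sites of both.

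More than 5 kb from any start site, the highest 6 sites not overlapped by IgG all had a CTCF core. The first, chr2:240232970-240234147, had 28.5 and 9.02 for Sp1 and 89.7 and 58.4 for CTCF. At chr15:99926015-99928543 antibody 1 gave 64.4 and antibody 2 8.81, with CTCF at 149 and 51.0. The site 13198 bp from the start of SPACDR had 10.1 and 9.26 for Sp1 and 83.8 and 33.6 for CTCF, and the site 13355 bp from that of TUBB4A, a beta tubulin, had 16.1 and 8.01 for Sp1 and 119 and 114 for CTCF. The sites nearest to OR1D5, an olfactory receptor, and CRYBB2, a lens crystallin, had CTCF at 76.1 and 51.3 and at 140 and 42.8. Over all 96 distal sites the core was present in 28 (29.2%) and a GC box in 29 (30.2%, against 59.4% at promoter sites). These shares include sites overlapped by IgG, which were 33 of the 96 distal sites and 1 of the 811 promoter sites. Of all 36 sites overlapped by IgG, 1 had a core and 1 a GC box, so they lower the distal shares.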

How the data were processed

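ChIP-seq libraries of 8 samples were described by the labels, and 5 had a peak list used here. Per the study's methods, Cutadapt trimming, Bowtie2 alignment (hg38) and duplicate removal by SAMtools came before peak calling with MACS, which gave 1 list per library. The submitters' processing notes name MACS2 2.2.7.1, Bowtie2 2.4.5 and Cutadapt 2.6, while the methods of the study name other versions of some. In the deposited lists each peak carries a fold enrichment (a linear ratio to control made by the authors), a −log10 p and −log10 q, and a score, which was not used. Depth is not in the lists, and input libraries were not used.

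Overlap meant at least 1 shared bp. Fold enrichment was used as deposited. Starts and features came from GENCODE release 44 (canonical transcripts for features), and genes were matched by symbol. Chromosome 8 was left out of the search for sequences to print, while the motif shares include it. Shares carry Wilson and differences Newcombe 95% intervals (Python 3.11.15, numpy 2.4.6, pandas 2.3.3). Scripts were tested on simulated data. No significance test was run, since each Sp1 antibody had 1 library and peaks are not replicates.

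The sites and gene lists were chosen with earlier results of these data known. Named were the 12 highest sites, 6 distal sites, 4 with the closest and 4 with the farthest summits, 3 on each side of the overlap limit, up to 3 genes per list in full, 6 sequences and a few preset genes. Some items that this rule names are not reported here. GTF2H2 and EIF3F, and the remaining list genes named beyond 3, were chosen after their values were seen. Alternatives changed the overlap rule, libraries, summits, start sites, motifs and windows.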

Additional observations from a re-analysis of the deposited data

How the results depend on the processing

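Alternatives numbered 74 over 7 results, of which 41 stayed close to the value reported and 33 moved. A change of direction could be recorded for the order along the gene alone, and there 0 were seen. Some alternatives, such as the limit of 100 bp on the summits, move a result by definition. With a reciprocal overlap of 50%, 362 sites were left, 10.3% of 3512 shared Sp1 peaks, with a median summit distance of 132 bp, 81.5% at promoters and CTCF downstream in 36.7%. With summits within 100 bp, 260 sites were left (6.16%), with a median distance of 46 bp, 73.8% at promoters and a GC box in 50%. Antibody 1 alone gave 1824 sites (21.2%), 200 bp, 81.2% at promoters and a core in 32.7%, and antibody 2 alone 19.2%, 186 bp, 79.7% at promoters and a GC box in 38.6%. Leaving out each CTCF replicate in turn gave 23% to 31.1% of shared Sp1 peaks with CTCF, median distances of 187 to 214 bp, 82.2% to 86.6% at promoters and a core in 22.7% to 25.8%. Leaving out sites with IgG gave 87.5% at promoters. A promoter distance of 500 bp gave 79.6%, 5 kb gave 90%, and protein-coding starts alone 75.1%. The core with 0 mismatches was in 6.34%. The GC box was in 45.6% with the second summits, in 70.3% within 100 bp, in 59.4% of promoter sites and, as GGGGCGGGG, in 17.8%. With the start nearest to CTCF, CTCF was downstream in 47.2%, the one alternative whose interval reached an even split. No paired analysis was possible because the Sp1 libraries carry no replicate and no test was run. Fold enrichment depends on depth, which was not taken into account, so differences in height between libraries are descriptions of those libraries.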
